A study of Mactra quadrangularis with 2 samples.

Results

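Lectins and other proteins that recognise or kill microbes were followed in the digestive gland transcriptome of the clam Mactra veneriformis, which the organism label gives as Mactra quadrangularis. The set holds 92 unigenes (transcript contigs assembled without a genome) of the 124752 in the data. They were chosen by words in the protein descriptions of the authors' deposited table of 17625 called unigenes, of which 4337 carry a description. The words were lectin (not selectin), mannose receptor, CD209, peptidoglycan recognition, lipopolysaccharide, bactericidal, lysozyme, defensin, scavenger receptor and macrophage, in the first entry of the Nr protein database or in the Swiss-Prot entry. Descriptions with perlucin, tyrosinase or collagen were dropped, which removed 1 of 93 matching unigenes.

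The study asked how gland transcripts differ after exposure to BDE-47, a brominated diphenyl ether used as a flame retardant. Clams of the BDE-47 group spent 3 days in water with a nominal 5 µg/L of the compound, delivered in the solvent DMSO at 0.05% by volume. Clams of the control group received DMSO alone at 0.05%. Per the series text, each group had 3 replicates of 30 clams, and glands of 30 clams were pooled for RNA, yet the tables hold 1 library per group. Strain, sex and age of the clams are not given in the labels.

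Bivalves make no antibodies, and their defence rests on proteins that bind sugars or lipids on the surface of microbes. C-type lectins bind sugars with the help of calcium, galectins bind beta-galactosides, and bivalve sialic acid-binding lectins often carry the C1q-like domain known from complement. Scavenger receptors take up modified lipoproteins and microbes, and bactericidal permeability-increasing protein binds the lipopolysaccharide of Gram-negative bacteria. The digestive gland of a filter-feeding clam takes up food particles and bacteria by phagocytosis and holds blood cells between its tubules.

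Library totals were 15.6 M (control) and 15.9 M (BDE-47) counted fragments. Sums over several unigenes are given as CPM, fragments per M fragments of the library. With 1 library per group no difference has a replicate check, no p-value was computed, and the 95% intervals (exact conditional binomial) cover counting error only. A unigene is called higher or lower in BDE-47 where 3 conditions hold. The log2 ratio of FPKM (fragments per kilobase and per M fragments) plus 0.1 is at least 1 in size, both libraries together hold at least 20 fragments, and the interval of the ratio excludes 1. Fold values are ratios of fragments per library total, and a library at 0 is set to a floor of 3 fragments. Because RNA was taken from whole pooled glands, fewer cells of a type and less RNA per cell cannot be told apart.

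Of the 92 unigenes, 45 were higher in the BDE-47 library, 39 were lower and 8 did not pass the rule, 7 of them with fewer than 20 fragments. That nearly all passed follows from their source, a table that holds only called unigenes. Across the whole assembly, 12.4% of unigenes at or above the floor were higher and 16.2% lower. Across the described called unigenes, 35.2% were higher and 62.4% lower. Among those past the rule, 53.6% of the set and 36.1% of the described unigenes were higher. That share leaned on 1 kind of name, the sialic acid-binding lectins, which gave 19 of the 45 higher and 4 of the 39 lower. With 1 unigene per Nr description, 42.4% of the set past the rule were higher. The median log2 ratio was 1.12 over the set, -1.19 over the described unigenes and -0.11 over all unigenes with at least 20 fragments. The first 2 medians lie at the edge of a range around 0 that the called table leaves nearly empty. Single unigenes ran from a log2 ratio of -5.96 to 6.28.

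**Figure D1:**
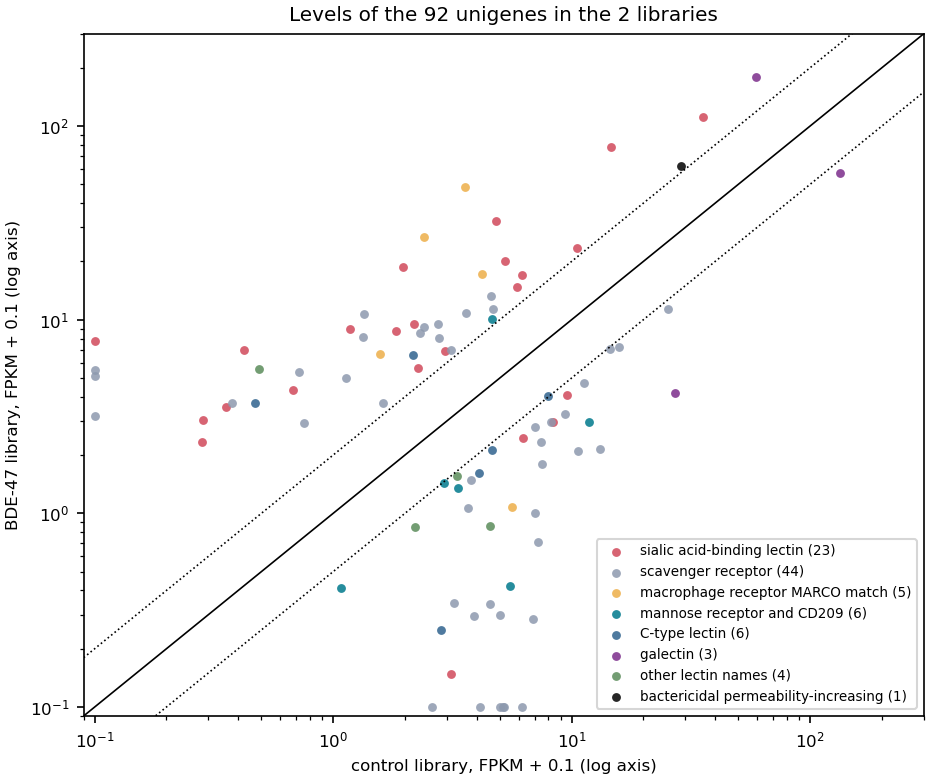
FPKM plus 0.1 of each of the 92 unigenes in the control library (horizontal log axis) and the BDE-47 library (vertical log axis), coloured by role. The solid line marks equal levels and the dotted lines a factor of 2 (a log2 ratio of 1 or -1). Points lie on both sides of the lines, 45 unigenes higher and 39 lower, and 46 of the 92 hold fewer than 100 fragments.

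The names fell into 8 roles. Scavenger receptors (44 unigenes) and sialic acid-binding lectins (23) made up 67 of the 92, followed by 6 C-type lectins, 6 mannose receptor or CD209 names, 5 matches to the macrophage receptor MARCO, 4 other lectin names, 3 galectins and 1 bactericidal permeability-increasing protein. No described unigene of the called table matched peptidoglycan recognition, lysozyme, defensin or macrophage-expressed protein. Of the nearest Nr entries, 76 came from molluscs, among them 47 from the oyster Crassostrea gigas, 18 from the clam Ruditapes philippinarum and 10 from the razor clam Solen grandis. The median Nr bit score was 72.8, against 116 over the described unigenes, and the median length was 707 bases, against 1210. Many of the names therefore rest on short or distant matches.

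**Figure D2:**
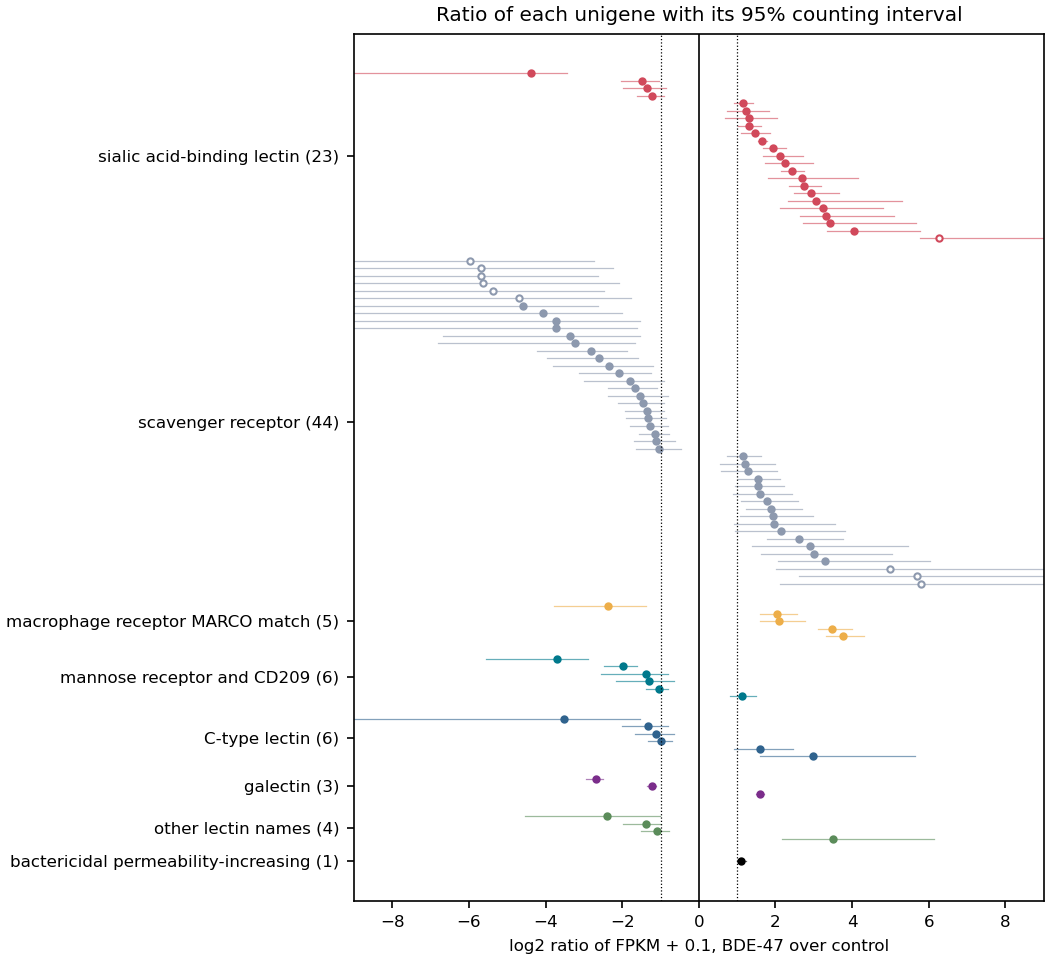
Log2 ratio of FPKM plus 0.1, BDE-47 over control, of each unigene (point) with the 95% counting interval of its ratio (line), sorted within 8 roles. Open points mark unigenes at 0 in 1 library, whose interval has no outer limit, and dotted lines mark a log2 ratio of 1 and -1. In the sialic acid-binding lectins 19 of 23 points are called higher, and in the scavenger receptors 16 are higher and 22 lower.

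Sialic acid-binding lectins were the role with the most unigenes higher in BDE-47, 19 of 23, with 4 lower. They summed to 2194 control and 6589 BDE-47 fragments. As CPM that is 140 (95% Poisson interval 135 to 146) and 413 (403 to 423), a ratio of 2.94 (2.80 to 3.09). Both sources of the name ran the same way, with 11 of 13 unigenes named after Ruditapes philippinarum and 8 of 10 named after Solen grandis higher.

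CL10711.Contig3, a Ruditapes-named lectin with the most fragments of the role, had 768 control and 2470 BDE-47 fragments, or 35.5 and 112 FPKM, and was 3.15-fold higher (2.90 to 3.42). Its sister contigs were not past the rule, Contig1 with 1489 and 1924 fragments and Contig2 with 2475 and 1742. Contigs of 1 cluster are similar sequences that may be alleles, splice forms or near copies, so that reads can be split between them. The share of Contig3 in its cluster was 16.2% (15.2% to 17.3%) in the control and 40.3% (39.0% to 41.5%) in BDE-47, and the summed cluster had a log2 ratio of 0.34. The higher level of this contig thus went with a small difference of its cluster.

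Unigene40803, which stands alone in the assembly, had 113 and 623 fragments, or 14.5 and 78.3 FPKM, and was 5.40-fold higher (4.41 to 6.66). Unigene31480, also a single contig, had 184 and 420 fragments, or 10.5 and 23.4 FPKM, and was 2.24-fold higher (1.88 to 2.67). Both CL9818.Contig1 (121 and 482 fragments, 3.90-fold, 3.19 to 4.80) and its sister CL9818.Contig2 (128 and 328 fragments) were higher, and their cluster had a log2 ratio of 1.43. These lectins had counts above 100 in both libraries, and the CL9818 sum passed the rule as its contigs of the set did. Outside the set, CL9818.Contig3 was lower (19 and 4 fragments) and CL9818.Contig4 was not past the rule (52 and 71).

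At the other end of depth, the control was near 0. CL20422.Contig2 was listed at 0 in the control against 208 BDE-47 fragments, 67.9-fold higher with the control at the floor (lower interval limit 54.7). Its sister CL20422.Contig1 had 137 and 191 fragments and the cluster a log2 ratio of 1.49. Unigene40592 had 7 and 153 fragments, a ratio of 21.4 (10.1 to 54.1), and Unigene40590 had 5 and 82, a ratio of 16.1 (6.61 to 50.8). The Swiss-Prot match of CL20422.Contig2 and Unigene40592 is a C1q and tumor necrosis factor-related protein, and that of Unigene40590 is HIP, a heavy metal-binding protein. Over the role, 6 unigenes had a C1q-related Swiss-Prot match, 3 matched HIP, 3 matched other proteins and 11 had none.

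The lower lectins of this role all came from clusters. CL14859.Contig1 had 141 and 50 fragments, 2.88-fold lower (2.07 to 4.06), and CL381.Contig7 had 238 and 102, 2.38-fold lower (1.88 to 3.04). Neither cluster passed the rule when summed, with log2 ratios of -0.50 and -0.50. In cluster CL609 the contigs ran opposite ways: CL609.Contig1 had 101 and 39 fragments, CL609.Contig4 had 61 and 1 (a ratio of 62.3 lower, 10.8 to 2500), and CL609.Contig3 had 7 and 96 (13.4-fold higher, 6.27 to 34.3). The sum of that cluster was 199 control and 241 BDE-47 fragments, a log2 ratio of 0.24. Counted by locus (a cluster summed, or a single unigene), 11 of the 19 loci of the role were higher, 0 lower and 8 not past the rule. Those loci summed to 550 and 805 CPM, a ratio of 1.46 (1.42 to 1.503). No share of called loci over the whole assembly is given, so locus counts here and below have no background beside them.

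**Figure D3:**
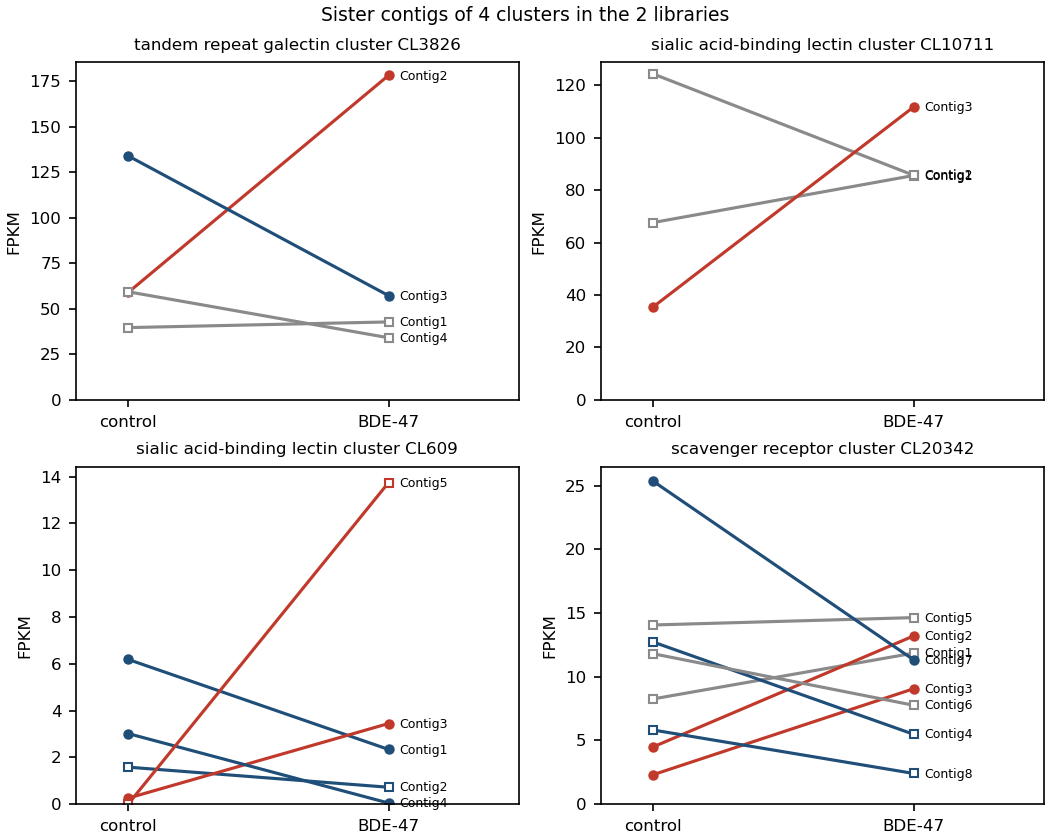
FPKM of every contig of 4 clusters in the control and BDE-47 libraries, with filled circles for unigenes of the set and open squares for their sisters, red where higher, blue where lower and grey where not past the rule. Within a cluster, lines cross, as for the galectin contigs CL3826.Contig2 (59.0 to 178 FPKM) and CL3826.Contig3 (134 to 57.3 FPKM).

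The tandem repeat galectins, whose chain carries a pair or more of galactoside-binding domains, took the most fragments of the 8 roles over both libraries together. Their 3 unigenes summed to 4558 control and 4588 BDE-47 fragments, or 292 (283 to 300) and 288 (279 to 296) CPM, a ratio of 0.986 (0.946 to 1.03). With TMM scaling (a trimmed-mean scaling between libraries) the log2 ratio of this sum was 0.04 in place of -0.02. The contigs behind it differed in opposite directions. CL3826.Contig2, with a Galectin-9 match, had 1123 and 3465 fragments, or 59.0 and 178 FPKM, and was 3.02-fold higher (2.82 to 3.23). CL3826.Contig3 of the same cluster, with a Galectin-9C match, had 2099 and 916 fragments, or 134 and 57.3 FPKM, and was 2.34-fold lower (2.16 to 2.53). Contig2 held 20.1% (19.1% to 21.2%) of its cluster's fragments in the control and 55.1% (53.8% to 56.3%) in BDE-47, and Contig3 held 37.6% (36.3% to 38.9%) and 14.6% (13.7% to 15.4%). With the sisters CL3826.Contig1 (1026 and 1130 fragments) and CL3826.Contig4 (1334 and 783), the cluster summed to a log2 ratio of 0.14.

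The other galectin-named unigene, CL2567.Contig1, had 1336 control and 207 BDE-47 fragments, or 27.1 and 4.11 FPKM, and was 6.59-fold lower (5.69 to 7.67). Its summed cluster was lower as well, with a log2 ratio of -2.004. Its Nr bit score of 25.4 was the lowest of the set and it had no Swiss-Prot match, so the name of this unigene is weakly held. The nearly level galectin sum includes CL2567.Contig1, without which that sum would be higher in BDE-47.

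The C-type lectins and the mannose receptor and CD209 names, which share the C-type lectin domain, held more lower than higher unigenes. Of these 12, 3 were higher, 7 lower and 2 not past the rule, near the shares of all described called unigenes (35.2% higher and 62.4% lower). The 12 summed to 1355 control and 802 BDE-47 fragments, a 1.73-fold lower sum (1.58 to 1.89). The C-type lectins alone summed to 31.2 (28.5 to 34.1) and 19.2 (17.1 to 21.5) CPM, and the mannose receptor and CD209 names to 55.5 (51.9 to 59.3) and 31.1 (28.4 to 34.0). Summed over whole clusters the direction of the C-type lectins turned. Their 5 loci counted 3 higher, 0 lower and 2 not past the rule, with 1948 control and 2670 BDE-47 fragments, a ratio of 1.34 (1.27 to 1.42). Cluster CL16350 gave 31 and 975 of those fragments, of which 13 and 949 belong to CL16350.Contig2, a contig with a tyrosinase name outside the set. The turn of the sum rests on that contig, without which the sum over the loci would stay lower in BDE-47. The 4 mannose receptor and CD209 loci counted 0 higher and 2 lower, with a ratio of 0.739 (0.684 to 0.798).

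Unigene33124, matched to CD209, a sugar-binding receptor of mammalian dendritic cells, had 231 control and 58 BDE-47 fragments, or 11.7 and 2.87 FPKM, and was 4.07-fold lower (3.04 to 5.52). Unigene71855, with a CD209-like Nr name, had 99 and 6 fragments, a 16.9-fold lower level (7.47 to 47.02). The macrophage mannose receptor, a phagocytic receptor with many C-type lectin domains, was the name of 3 contigs of CL1255, all lower, of which CL1255.Contig3 is the longest of the set at 7395 bases. That contig had 327 and 157 fragments and was 2.13-fold lower (1.75 to 2.59), while the cluster of 5 contigs summed to a log2 ratio of -0.49. CL10432.Contig1, named after the mouse CD209 relative SIGNR1, had 105 and 237 fragments and was 2.21-fold higher (1.75 to 2.81), in a cluster with a log2 ratio of 0.48.

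Among the C-type lectins proper, CL1305.Contig6 (107 and 49 fragments) and CL1305.Contig8 (90 and 35) were 2.23-fold (1.58 to 3.19) and 2.63-fold (1.76 to 3.999) lower, with a cluster log2 ratio of -0.72. CL5330.Contig8, with 250 and 127 fragments, had a log2 ratio of -0.99 just short of the rule, and its cluster, with 916 and 987 fragments, one of 0.08. Higher were Unigene40795, with 20 and 64 fragments (3.13-fold, 1.87 to 5.47), and CL19012.Contig2, with 3 and 30 (a ratio of 9.79, 3.05 to 50.1). No C-type lectin reached 8 FPKM in either library.

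Scavenger receptor names were the most numerous and were split, with 16 unigenes higher, 22 lower and 6 not past the rule. They summed to 1740 control and 1482 BDE-47 fragments, or 111 (106 to 117) and 92.9 (88.2 to 97.8) CPM, a 1.20-fold lower sum (1.12 to 1.29). Of the 44, 32 held fewer than 100 fragments. Class F, receptors with rows of EGF-like repeats, was the Swiss-Prot match of 31, of which 13 were higher and 17 lower. The Nr name was also a scavenger receptor for 3 of the 31, hypothetical for 2, and another protein for 26, such as receptor-type tyrosine-protein phosphatase T, multiple EGF-like domains, tenascin-X or Tie-1. The databases thus gave different names to most of the class F matches.

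CL20342.Contig7, a class F match and the scavenger receptor with the most fragments, had 173 and 79 fragments, or 25.3 and 11.3 FPKM, and was 2.24-fold lower (1.70 to 2.96). Its sisters CL20342.Contig2 (40 and 120 fragments) and CL20342.Contig3 (13 and 52) were higher, and the cluster of 8 contigs had a log2 ratio of -0.27. Cluster CL19392, with 20 contigs and 6 of the set, likewise held 2 higher and 4 lower and summed to 934 and 751 fragments, a log2 ratio of -0.34. Class F contigs of both clusters thus differed against each other while their sums stayed short of the rule. Unigene28998, a class F match that stands alone, had 63 and 146 fragments and was 2.27-fold higher (1.68 to 3.10).

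The widest ratios of the role sat on short contigs near 0 in 1 library. Unigene54897 (311 bases) was listed at 0 in the control against 25 BDE-47 fragments, 8.16-fold higher with the control at the floor (lower interval limit 6.16). Unigene55565 had 3 and 40, a ratio of 13.1 (4.16 to 66.0). Unigene56479 had 4 and 35 fragments, a ratio of 8.57 (3.06 to 33.2). In the other direction Unigene73804 had 26 control and 0 BDE-47 fragments, 8.85-fold lower with BDE-47 at the floor (lower interval limit 6.70). In the same terms Unigene73870 had 24 and 0, 8.17-fold lower (limit 6.15), and CL19392.Contig15 had 22 and 0, 7.49-fold lower (limit 5.59). At such counts the intervals span a factor of 10 or more or have no upper limit.

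Class B, the CD36-like receptors that take up lipoproteins and lipids, was the match of CL2118.Contig1, with 125 and 48 fragments, or 3.70 and 1.39 FPKM. It was 2.66-fold lower (1.89 to 3.79), and the summed cluster, at a log2 ratio of -0.88, did not pass. Its Nr bit score of 376 was far above the median of the set. The 6 matches to proteins with scavenger receptor cysteine-rich (SRCR) domains counted 1 higher, 3 lower and 2 not past the rule, with a sum of 14.6 and 7.96 CPM. By locus the scavenger receptors counted 10 higher, 12 lower and 14 not past the rule, and summed to a ratio of 0.957 (0.915 to 0.9996).

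MARCO, a scavenger receptor of mammalian macrophages that also ends in an SRCR domain, was the Swiss-Prot match of 5 unigenes, 4 higher and 1 lower. They summed to 206 control and 1437 BDE-47 fragments, or 13.2 (11.5 to 15.1) and 90.1 (85.5 to 94.9) CPM, a ratio of 6.83 (5.90 to 7.94). Unigene43765 had 48 and 566 fragments, or 2.32 and 26.8 FPKM, and was 11.5-fold higher (8.59 to 15.8). CL2352.Contig1 had 37 and 526 fragments, or 3.47 and 48.3 FPKM, and was 13.9-fold higher (9.97 to 19.99), and with its sister CL2352.Contig2 (74 and 39 fragments) the cluster had a log2 ratio of 2.31. Unigene8140 had 31 and 141 fragments (4.45-fold, 3.00 to 6.80) and Unigene29771 had 46 and 196 (4.17-fold, 3.01 to 5.88). The lower one, CL1494.Contig2, had 44 and 8 fragments (5.62-fold lower, 2.62 to 13.8). With whole clusters summed, 4 of the 5 loci were higher and 0 lower, and the ratio was 3.36 (3.03 to 3.73), from 29.6 and 99.4 CPM.

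None of the 5 MARCO matches carries that name in Nr. CL2352.Contig1 and Unigene29771 are hypothetical proteins there, and CL1494.Contig2, the lower one, is neurotrypsin-like. The Nr names of Unigene43765 and Unigene8140 are deleted in malignant brain tumors 1 protein (DMBT1), a secreted SRCR protein that binds bacteria in mammalian gut and saliva. The 5 other unigenes of the set with a DMBT1 Nr name, all scavenger receptor matches, counted 1 higher, 3 lower and 1 not past the rule and summed to 14.6 and 6.90 CPM. Among the described unigenes outside the set, 10 more carry the DMBT1 name, 6 higher and 3 lower. Blood cell and phagocyte words in the same table (22 unigenes, 8 higher and 10 lower) summed to 282 and 463 CPM. The described unigenes of that table were 35.2% higher and 62.4% lower. The sums of the words within the blood cell and phagocyte list ran opposite ways. Both unigenes with the word hemocyte were lower (795 and 357 fragments). They include Unigene871 (570 and 267), matched to a hemocyte transglutaminase, an enzyme of blood clotting in arthropods. Integrin names, which many cell types carry, summed to 2135 and 3925 fragments but counted 7 higher and 7 lower of 18. Most of that excess came from Unigene39395 (573 and 1981), whose Nr name is fibropellin. Allograft inflammatory factor names summed to 1472 and 3095, with 1 higher and 1 lower. The word hemocytin matched no described unigene. The part of blood cells in the MARCO or lectin values was not tested.

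Bactericidal permeability-increasing protein was represented by Unigene40460, with 894 control and 1965 BDE-47 fragments, or 28.7 and 61.8 FPKM. It was 2.15-fold higher (1.99 to 2.33). At 1994 bases and a bit score of 414 to an oyster protein, with the same name in Swiss-Prot, its identity was among the best held of the set. No other unigene of the set carried an antibacterial name.

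The other lectin names counted 1 higher and 3 lower. CL20248.Contig1, matched to techylectin-5A, a fibrinogen-domain lectin of horseshoe crab blood, had 3 and 43 fragments, a ratio of 14.0 (4.49 to 70.7), in a cluster with a log2 ratio of 1.78. CL10240.Contig2, with a collectin-10 name, had 23 and 4 fragments, 5.87-fold lower (2.01 to 23.4), but its cluster had a log2 ratio of -0.05. The remaining 2, CL1450.Contig2 (201 and 93 fragments, 2.21-fold lower) and CL1450.Contig3 (131 and 48, 2.79-fold lower), are named plectin, a linker of the cytoskeleton whose name holds the word lectin by chance. Without them the role summed to a log2 ratio of 0.82 in place of -0.96.

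**Figure D4:**
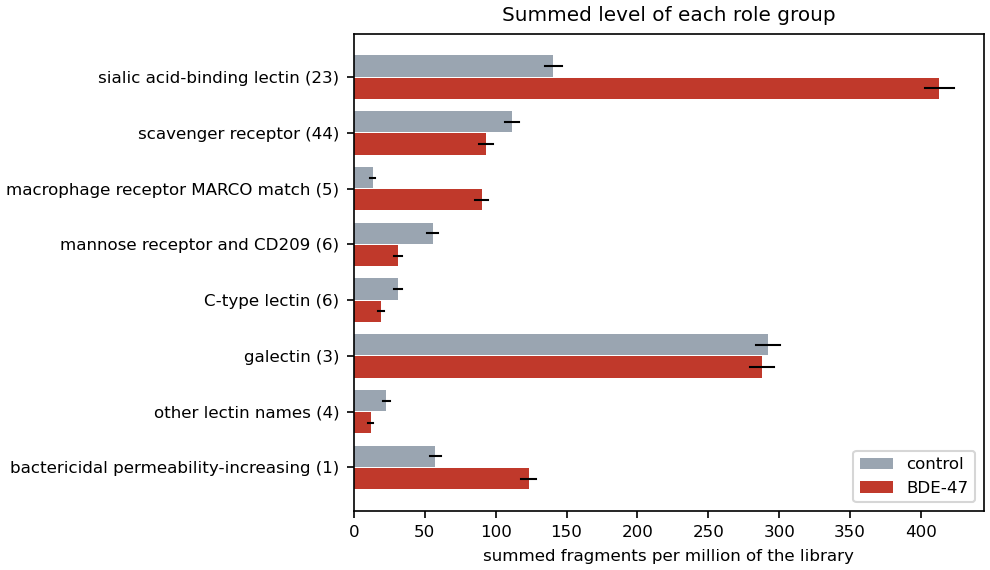
Summed CPM of each of 8 roles, control in grey and BDE-47 in red, with the number of unigenes in parentheses and 95% Poisson intervals as black lines. The sialic acid-binding lectins (140 and 413 CPM) and MARCO matches (13.2 and 90.1) were higher in BDE-47. The galectins (292 and 288) were nearly level with the weakly named CL2567.Contig1 included.

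Over the whole set, the sum was 11305 control and 17051 BDE-47 fragments, or 724 (711 to 737) and 1069 (1053 to 1085) CPM, a ratio of 1.48 (1.44 to 1.51). The sum over whole clusters was closer to level. The 53 unigenes from clusters belong to 36 clusters with 168 contigs, 98 of which the authors did not call. Summed over all contigs, 10 of the 36 clusters were higher, 2 lower and 24 not past the rule. In 8 clusters, contigs passed the rule in both directions. Over all 75 loci 30 were higher, 15 lower and 30 not past the rule, and the sum was 1678 and 2035 CPM, a ratio of 1.21 (1.19 to 1.23). That sum includes the 13 and 949 fragments of CL16350.Contig2, which has a tyrosinase name. Without the shares over all clusters and loci of the assembly, these counts do not show an excess in the set.

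Direction also went with the number in the unigene name. Single unigenes numbered 40400 to 66349 had a median log2 ratio of 1.17 over all 25917 of them, and those numbered 66350 to 77560 a median of -1.87 over 11183. In the first of these ranges 13 of the 15 unigenes of the set were higher and 0 lower, where 96.9% of the described unigenes of the range were higher and 2.7% lower. In the second range 0 of 14 were higher and 10 lower, where 0.693% of the described unigenes were higher and 99.3% lower. Those percentages cover unigenes with at least 20 fragments, of which the set had 13 in the first range, all higher, and 10 in the second, all lower. At that floor the shares of the set were near those of their surroundings. Below number 40400, 7 of 10 were higher and 3 lower, against 24.2% and 72.3%, and among clustered contigs 25 of 53 were higher and 26 lower, against 33.6% and 63.8%. The range limits were read from the data. Unigene40460 (bactericidal permeability-increasing protein), the MARCO match Unigene43765 and the lectins Unigene40803, Unigene40592, Unigene40590 and Unigene40795 lie in the first range, and the CD209 name Unigene71855 in the second. Without both ranges the summed log2 ratio was 1.43 in place of 1.56 for sialic acid-binding lectins and 2.43 in place of 2.77 for MARCO matches. The part of the assembly or its numbering in the other values was not tested. Outside both ranges 32 of the set were higher and 29 lower, against 30.7% higher and 66.4% lower among the described unigenes there. Of the 23 sialic acid-binding lectins 4 lay in the first range, all higher, and of the 17 in clusters 13 were higher. Of the 44 scavenger receptors 8 lay in the first range (6 higher) and 13 in the second (9 lower), and of the 18 in clusters 7 were higher and 11 lower.

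**Figure D5:**
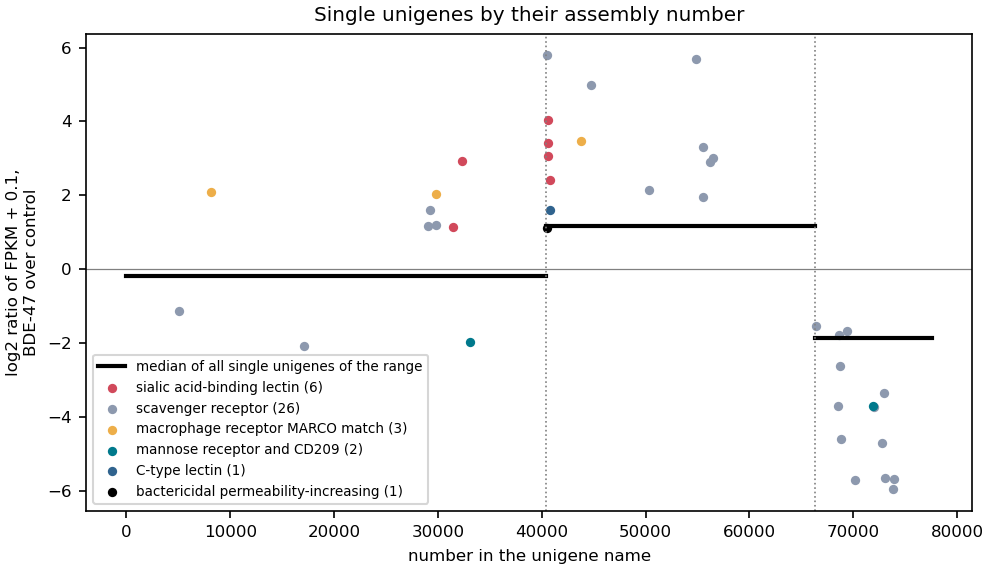
Log2 ratio of FPKM plus 0.1, BDE-47 over control, of the unigenes of the set that belong to no cluster, against the number in their name. Black bars give the median of all single unigenes of 3 ranges (-0.18, 1.17 and -1.87) and dotted lines the range limits at 40400 and 66350. The points between the limits lie above 0 and those beyond 66350 below 0.

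Other genes of microbe recognition and its signalling, outside the set, were counted in the same table. Of 83 described unigenes 39 were higher, 40 lower and 4 not past the rule. Nearly all described unigenes of that table pass the rule, 35.2% higher and 62.4% lower at the floor. The counts by name below stand beside those shares. Toll names, mostly receptors that sense microbial molecules at the membrane, counted 3 higher and 14 lower of 18, and CL13100.Contig2, the one with the most fragments, had 1519 and 598. Downstream of them, the 1 IRAK kinase and the 3 TRAF names were lower. Of the TRAF names, Unigene5850 and Unigene38254 matched only a TRAF family protein, not a named TRAF adaptor. All 6 NF-kappa-B pathway names carry an inhibitor name in Nr or Swiss-Prot, and 5 of these 6 were higher. CL20177.Contig1, named inhibitor of NF-kappa-B, which holds that transcription factor in the cytoplasm, had 1995 and 5316 fragments.

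Complement names other than C1q counted 11 higher and 3 lower of 14, and C1q names 6 and 7 of 15. Fibrinogen and ficolin names, another family of sugar binders, counted 2 higher and 7 lower of 9. Both thioester proteins were higher, with Unigene20319 at 221 and 2003 fragments, as was the 1 beta-1,3-glucan binding protein, CL16111.Contig1, which recognises fungal walls, at 26 and 268. All 3 interleukin-17 names were higher, CL3997.Contig1 (interleukin-17D-like) with 93 and 2020 fragments. MyD88, big defensin, mytilin, RIG-I and STING matched no described unigene.

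Words for other cells or food in the pooled gland were counted in the same table of called unigenes. Its described unigenes were 35.2% higher and 62.4% lower at the floor. Digestive enzyme words counted 23 higher and 7 lower of 34 (1339 and 1024 CPM). That sum turned on the cathepsin L unigene CL2966.Contig2 (17963 and 9135 fragments), without which it was 189 and 452 CPM. The words also matched names that are no digestive enzymes. Among them were the phospholipase A2 receptor match Unigene57109 (811 and 2472 fragments) and the chymotrypsin inhibitor match Unigene26836 (234 and 584). Both remain in the smaller sum, whose rise is therefore not one of digestive enzymes alone. Muscle words matched 12 myosin heavy chain names, 2 higher and 10 lower (258 and 102 CPM), of which 4 are non-muscle myosins that made up 193 and 80.8 CPM, and paramyosin, troponin, twitchin and tropomyosin matched none. Gonad names counted 12 higher and 15 lower of 31 (654 and 1091 CPM), 10 of them also copepod matches (0 and 87.5 CPM). Cilia names counted 2 higher and 16 lower of 19 (291 and 163 CPM). Shell matrix names of the mantle counted 12 higher and 3 lower of 16 and summed to 132 and 2990 CPM. Nearest matches in copepods summed to 6.53 and 120 CPM and those in ciliates to 376 and 236, and none was algal. The part of these other cells in the lectin values was not tested.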

How the data were processed

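Per the labels' protocols, poly(A) RNA was read on an Illumina HiSeq machine. The authors deposited fragment counts per unigene, whose sums equal the totals in the file headers. Deposited FPKM values are the authors' scaling of these counts by unigene length and library total, and recomputing them gave the same values but for rounding. A log2 ratio of the FPKM values, BDE-47 over control, is also deposited. The p-value and FDR that the authors deposited come from a test the sources used here do not give, and served only to describe their called table. The bit score of each database match is the authors', from the deposited annotation. Per the submitters' processing notes, CASAVA 1.5 was used. How contigs were assembled, aligned to and counted, and whether by strand, was not given in the sources used here. No protein or contig sequence was used here.

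From the counts, ratios, exact binomial (Clopper-Pearson) and Poisson intervals and summed levels were computed over the whole table with Python 3.11.15, pandas 2.3.3, numpy 2.4.6 and scipy 1.17.1, and figures with matplotlib 3.10.9. Alternative scalings were TMM (edgeR 4.0.16) and median-of-ratios (DESeq2 1.42.0) in R 4.3.3. Libraries were PCR-amplified and hold no molecular identifiers, so intervals and floors cover counting error only. The rule of size was tested on simulated data with counting noise only, which leaves out differences between clams or pools. Each unigene went to the first role whose words its Nr name, then its Swiss-Prot name, matched. Named are, per role, the 3 highest and 3 lowest log2 ratios past the rule and the 3 unigenes with most fragments, the 10 with most fragments of the set, those at 0 in 1 library with at least 100 fragments in the other, and sisters of these. CL381.Contig7, Unigene68829 and the genes named outside the set were chosen after their values were seen. The members, word lists and rules were chosen with earlier results of these data known. Alternatives covered scaling, pseudocount, fragment floor, cluster sums and subsets of names. A bit score of at least 80 and leaving out the 2 numbering ranges were added after seeing the data.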

Additional observations from a re-analysis of the deposited data

How the results depend on the processing

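The counts of 45 higher and 39 lower unigenes, 53.6% higher, moved mostly with how many unigenes entered. A floor of 100 fragments gave 25 and 20, 1 unigene per Nr description 14 and 19, Nr matches alone 27 and 17, Swiss-Prot matches alone 24 and 29 (45.3% higher), a bit score of at least 80 gave 21 and 13, and summed clusters 15 lower and 66.7% higher. Over all unigenes, 11092 higher became 17626 with no floor, and 2789 higher and 3988 lower with a floor of 100. The log2 ratio of the summed set, 0.56, was 0.62 with TMM, 0.43 for Swiss-Prot matches, 0.65 without Nr matches outside molluscs, 0.39 without the unigene with most fragments, 0.73 at a bit score of at least 80 and 0.42 without the 2 numbering ranges. In the same terms, C-type lectins (-0.70) were -0.42 for Swiss-Prot matches, -0.34 without matches outside molluscs, -0.44 without the top unigene, -0.93 by bit score and -0.98 without the ranges. Galectins (-0.02) were 0.039 with TMM, 0.41 for Swiss-Prot matches and -1.64 without the top unigene. Mannose receptor and CD209 names (-0.84) were -1.43 for Nr matches. Without matches outside molluscs only CL1255.Contig4 was left (-1.38), and by bit score only CL10432.Contig1 (1.14), so neither value is a sum over the role. Other lectins (-0.96) were -1.32 for Nr matches, 0.82 for Swiss-Prot matches and 0.82 without plectin. By bit score only the plectin contigs were left (-1.27). MARCO matches (2.77) were 3.13 without matches outside molluscs, 2.43 without the top unigene and 2.43 without the ranges. By bit score only Unigene8140 was left (2.16). Scavenger receptors (-0.26) were 0.74 for Nr matches, -0.41 for Swiss-Prot matches, -0.063 without matches outside molluscs, -0.13 by bit score and -0.14 without the ranges. Sialic acid-binding lectins (1.56) were 1.31 by bit score and 1.43 without the ranges. Summed clusters turned CL3826.Contig3 to 0.14 and CL609.Contig1 and CL609.Contig4 to 0.24, and moved 20 more of 42 named unigenes. TMM, median-of-ratios and a pseudocount of 0.001 moved 0 of the 42, and a pseudocount of 1 moved 15, downward in size. Fewer unigenes enter each subset by construction, and beyond that the cause was not tested. No paired analysis was possible because there is 1 library per group and no test, and no replicate could be left out. Counts under 100 limit 46 of the 92 unigenes.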

Other observations

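The unigene dropped for its tyrosinase name, CL16350.Contig2, has CD209 as its Swiss-Prot match and an Nr name of putative tyrosinase-like protein. It counted 13 control and 949 BDE-47 fragments, a ratio of 71.5 (41.6 to 135), while its sister in the set, CL16350.Contig3, had 18 and 1. The authors' descriptions thus place contigs of 1 cluster inside and outside the set. CL609.Contig5, a sister of 3 sialic acid-binding lectins of the set, carries no description. It was listed at 0 in the control against 91 BDE-47 fragments, 29.7-fold higher with the control at the floor (lower interval limit 23.7).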
